A study of Mus musculus with 2 samples.

Results

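The PYHIN genes of the mouse Ifi200 locus are described here in single leukocytes of the injured heart. The 10 genes are Aim2, Ifi203, Ifi204, Ifi205, Ifi206, Ifi207, Ifi209, Ifi211, Ifi213 and Mndal, taken by name from a fixed list, and all 10 were found among the 32285 features of both count matrices. The family was chosen by UMI levels of its genes in these same libraries, some of which were already known to be lower after splenectomy, so the differences between libraries given below describe these libraries and were not tested. Wild-type C57BL/6J males aged 8 weeks had either a sham operation or removal of the spleen, and both groups then had the left anterior descending coronary artery tied for 60 min and reopened for 24 h. Leukocytes were drawn from the hearts on magnetic beads by their surface protein CD45, and 1 library per group was sequenced with a 3′ kit that tags each RNA molecule with a unique molecular identifier (UMI). One library is labelled as splenectomy and the other is taken as sham because it carries no such mark. The sources used here do not give the number of mice behind each library.

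PYHIN proteins join a pyrin domain, which binds other pyrin domains, to a HIN domain, which binds DNA. Aim2 senses double-stranded DNA in the cytosol and recruits the adaptor encoded by Pycard, which activates caspase-1 and the release of interleukin-1β. Ifi204 is the mouse gene most often compared with human IFI16, a DNA sensor of the nucleus and cytosol that signals through STING. Most other members are known chiefly as genes that interferon induces in haematopoietic cells, where their products bind DNA, alter transcription and slow cell growth.

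The sham library held 53512625 UMIs in 6210 barcodes and the splenectomy library 48024013 UMIs in 5087 barcodes. After filters, 5838 sham cells with a median of 4988 UMIs and 4805 splenectomy cells with a median of 7219 UMIs were kept. Ptprc, which encodes CD45, had a UMI in 79.7% and 79.4% of them, and 8 kept barcodes occurred in both libraries. Clusters were named from fixed markers, and 8 named classes held at least 50 cells in each library. They were neutrophil-like (2268 sham and 1591 splenectomy cells), monocyte-like (1130 and 1274), macrophage-like (1254 and 949), conventional dendritic cell-like (262 and 220), nonclassical monocyte-like (112 and 69), B cell-like (110 and 110), T cell-like (73 and 76) and endothelial cell-like (108 and 105), the last not leukocytes. A further 421 sham and 341 splenectomy cells stayed unnamed. Each cell was also placed by its own marker UMIs. The same class was then given to 55.0% of the monocyte-like, 71.1% of the macrophage-like and 95.2% of the neutrophil-like cells. Of 2404 monocyte-like cells, 292 were placed as macrophages and 735 stayed unnamed. Of 2203 macrophage-like cells, 172 were placed as monocytes and 388 stayed unnamed. The border between these classes is therefore not sharp. Levels below are CPM, the UMIs of a gene scaled to the total UMIs of its class, with exact 95% intervals that cover counting error only. With 1 library per group, no difference between the libraries has a replicate check, and the operation cannot be told apart from any other difference between the libraries.

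The 10 genes lie in 1 stretch of chromosome 1 (mm10, positions of whole genes from GENCODE vM21), with Ifi214, Ifi208 and Ifi202b, PYHIN genes outside the list, among them. Aim2 is the first, at chr1:173350879-173466040 on the plus strand. Ifi206 (chr1:173468485-173491041, minus), Ifi213 (chr1:173566283-173599274, minus), Ifi209 (chr1:173630917-173647928, plus) and Ifi207 (chr1:173723427-173741747, minus) follow. Ifi204 (chr1:173747293-173766943), Mndal (chr1:173849126-173942491), Ifi211 (chr1:173896345-173913046), Ifi203 (chr1:173920407-173942672) and Ifi205 (chr1:174011998-174031810), all on the minus strand, close the row. The annotated Mndal gene spans Ifi211 and most of Ifi203 on the same strand, and Aim2 overlaps Cadm3 on the other strand. Such neighbours arose as copies, and copies share 3′ ends, where this kit reads. Over the last 400 bases of the annotated transcripts, 76.4% of the 75-base stretches of Ifi211 and 39.4% of those of Ifi205 also occur in another gene, in each case mostly in the other of this pair. The share was 34.7% for Ifi209 (mostly with Ifi214), 12.3% for Mndal (mostly with Ifi205) and 11.5% for Ifi213 (mostly with Ifi208). It was 11.04% for Ifi206, 2.97% for Ifi203, and 0% for Aim2, Ifi204 and Ifi207. Counts of Ifi211, Ifi205 and Ifi209 are therefore uncertain. Those of Mndal are uncertain too, as its span also overlaps Ifi211 and Ifi203 on the same strand. Counts of Aim2, Ifi204 and Ifi207 are the least affected by copies.

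Promoters are shown because interferon acts on such genes through the interferon-stimulated response element, whose core was searched on both strands as 2 copies of GAAA parted by any 2 bases. RefSeq promoters (GRCm38.p6, from 250 bases before to 50 after the start site) were held for 9 of the 10 members, Ifi204 being the exception. The core occurred in at least 1 promoter of 7 of these 9, namely Ifi203, Ifi205, Ifi206, Ifi207, Ifi211, Ifi213 and Mndal. A further promoter of Ifi203 held no match. Counted by promoter, and with the PYHIN genes outside the list, 10 of 14 held the core, against 3.44% of all 32851 promoters. These 14 are not independent, as some are near copies. Aligned without gaps, Ifi213 and Ifi208 were identical at 98.9% of the compared bases, and Ifi206 and Ifi208 at 89.7%. The stretches below run 5′ to 3′ on the gene's strand, with the first match on that strand in capitals.
Ifi206 (chr1:173491324-173491388, minus strand): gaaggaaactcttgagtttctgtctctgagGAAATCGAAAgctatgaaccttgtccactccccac
Ifi213 (chr1:173599311-173599375, minus strand): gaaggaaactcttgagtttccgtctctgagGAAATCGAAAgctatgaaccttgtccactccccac
Ifi207 (chr1:173741816-173741880, minus strand): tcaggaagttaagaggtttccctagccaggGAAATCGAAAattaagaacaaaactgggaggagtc
Ifi211 (chr1:173913049-173913113, minus strand): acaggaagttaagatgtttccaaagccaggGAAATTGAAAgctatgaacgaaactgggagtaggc
Ifi205 (chr1:174031855-174031919, minus strand): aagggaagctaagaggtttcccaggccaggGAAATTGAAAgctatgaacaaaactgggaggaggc
Ifi203 (chr1:173942493-173942557, minus strand): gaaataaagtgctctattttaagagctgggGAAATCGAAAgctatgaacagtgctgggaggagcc
Mndal (chr1:173880189-173880253, minus strand): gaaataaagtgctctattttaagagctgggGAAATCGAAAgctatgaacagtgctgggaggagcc
Ifi209 (chr1:173630751-173630814, plus strand): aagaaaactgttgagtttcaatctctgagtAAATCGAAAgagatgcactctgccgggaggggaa
The match began 35 bases before the start site in Ifi203, 36 in Mndal, 37 in Ifi211, 40 in Ifi206, 41 in Ifi207, 73 in Ifi213 and 134 in Ifi205. The stretches of Ifi203 and Mndal are identical, and those of Ifi205 and Ifi211 carry the same variant of the core. The Ifi209 window lacks the full core, but the 9 letters AAATCGAAA in it, chosen after the sequences had been seen, occur in 41 of the 32851 promoters (0.125%), 8 of which belong to this locus. No match to the core was found in the Aim2 window. A match of letters describes the sequence, not binding.

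Summed over the 10 genes, the sham library held 60705 UMIs (1233 CPM) and the splenectomy library 38640 (863 CPM). At least 1 of these UMIs was seen in 80.1% of the sham cells and 74.0% of the splenectomy cells, at unequal depth. In sham cells the summed level was highest in monocyte-like cells at 1604 CPM, then 1434 in nonclassical monocyte-like, 1292 in macrophage-like, 1034 in conventional dendritic cell-like and 702 in neutrophil-like cells. T cell-like cells at 603 CPM, B cell-like cells at 510 and endothelial cell-like cells at 455 were lowest, each overlapping its neighbour within counting error. In splenectomy cells the summed level was 1209 CPM in nonclassical monocyte-like, 1062 in monocyte-like and 918 in macrophage-like cells. B cell-like and conventional dendritic cell-like cells followed at 719 CPM each. T cell-like cells at 536 CPM, endothelial cell-like cells at 450 and neutrophil-like cells at 356 were lowest there. In both libraries the family was thus most abundant in monocyte-like, nonclassical monocyte-like and macrophage-like cells. Different members made up the level in different cells.

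Aim2, the inflammasome sensor, was the only member with its highest sham level in neutrophil-like cells. It stood at 48.7 CPM there, 33.9 in nonclassical monocyte-like, 24.2 in B cell-like, 17.6 in macrophage-like, 17.6 in conventional dendritic cell-like, 16.1 in monocyte-like, 12.1 in T cell-like and 3.05 in endothelial cell-like cells. The interval of the neutrophil-like value overlapped that of the nonclassical monocyte-like value, and neighbours further down also overlapped. In the splenectomy library B cell-like cells came first, at 32.4 CPM, and neutrophil-like cells second, at 28.3, with overlapping intervals.

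Ifi204 and Ifi207 were genes of myeloid cells, neutrophils included. In the sham library Ifi204 reached 329 CPM in nonclassical monocyte-like, 316 in monocyte-like, 289 in neutrophil-like, 248 in macrophage-like and 98.9 in conventional dendritic cell-like cells. It was at 16.9 CPM in T cell-like and 2.42 in B cell-like cells, on 7 and 1 UMIs. Ifi207 had 357 CPM in macrophage-like, 346 in nonclassical monocyte-like, 337 in monocyte-like, 195 in neutrophil-like and 158 in conventional dendritic cell-like cells, and 19.4 and 4.84 in T cell-like and B cell-like cells. Together these 2 genes gave 68.9% of the family's UMIs in sham neutrophil-like cells, 46.8% in macrophage-like cells and 1.42% in B cell-like cells. UMIs count molecules at the 3′ end and do not grow with transcript length, so shares between genes compare molecules as far as reads could be assigned.

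Ifi203 and Mndal, neighbours in the row, differed from Ifi204 and Ifi207. Both were lowest in neutrophil-like cells and were not low in lymphocyte-like cells. Sham Ifi203 lay between 103 and 173 CPM in every class apart from neutrophil-like cells, where it was 11.8. Sham Mndal was 194 CPM in T cell-like, 189 in B cell-like, 156 in conventional dendritic cell-like, 146 in monocyte-like, 137 in endothelial cell-like, 119 in nonclassical monocyte-like, 111 in macrophage-like and 22.3 in neutrophil-like cells. Most neighbours in that order overlapped, and the neutrophil-like values stood apart for both genes. This pair gave 62.1% of the family's UMIs in sham B cell-like cells and 4.86% in neutrophil-like cells.

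Ifi205 and Ifi211 were highest in mononuclear phagocytes but not confined to them. Sham Ifi205 was 184 CPM in conventional dendritic cell-like and 179 in nonclassical monocyte-like cells, overlapping each other. It was 120 CPM in monocyte-like, 74.2 in macrophage-like, 31.5 in T cell-like, 22.9 in endothelial cell-like and 4.47 in neutrophil-like cells. No UMI of Ifi205 or Ifi211 was counted in sham B cell-like cells, which allows up to 7.25 CPM. Sham Ifi211 was 225 CPM in monocyte-like, 184 in macrophage-like, 135 in nonclassical monocyte-like and 128 in conventional dendritic cell-like cells. It was 67.2 CPM in endothelial cell-like, 31.2 in neutrophil-like and 19.4 in T cell-like cells.

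Ifi209, Ifi213 and Ifi206 were shared between myeloid cells and lymphocytes. Sham Ifi209 was 164 CPM in monocyte-like cells, 111 in B cell-like cells, 99.1 in macrophage-like cells, 79.9 in T cell-like cells and 4.58 in endothelial cell-like cells. Ifi213 was 64.2 CPM in monocyte-like, 45.9 in B cell-like, 43.6 in T cell-like and 14.1 in neutrophil-like cells. Ifi206 was 59.0 CPM in nonclassical monocyte-like, 50.8 in T cell-like, 43.8 in monocyte-like, 38.9 in macrophage-like and 36.4 in neutrophil-like cells, each overlapping the next of these 5, and 4.84 in B cell-like cells.

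**Figure D1:**
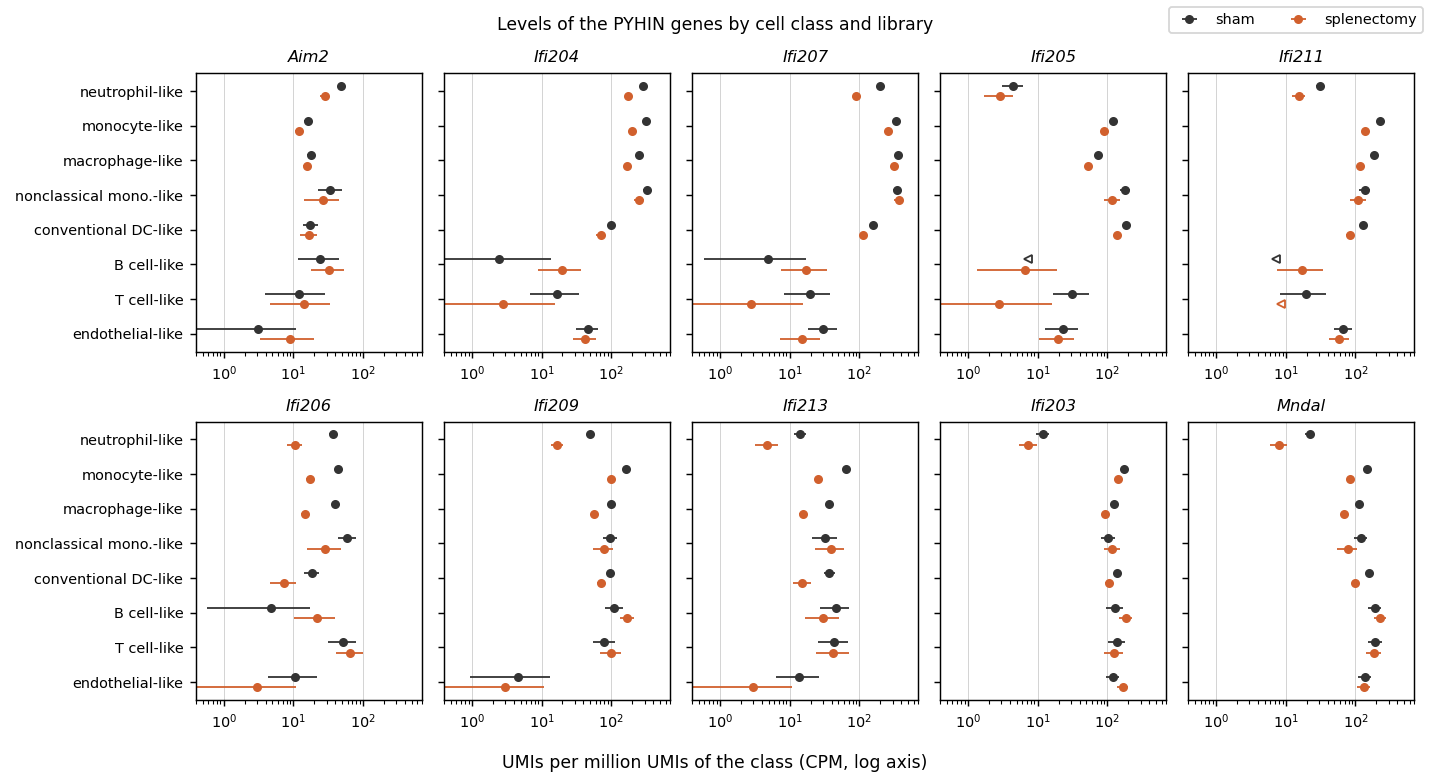
Each panel plots 1 gene, with CPM on a log axis and a row for each cell class. Points are the sham (black) and splenectomy (orange) libraries, bars are exact 95% counting intervals, and open triangles mark the limit of 3 counts where no UMI was seen. Ifi203 and Mndal stand far lower in neutrophil-like cells than in the other classes, whereas Ifi204 and Ifi207 fall away in B cell-like and T cell-like cells.

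Over the 16 class-by-library points of log2(CPM + 1), which share 2 libraries, the closest pairs were Ifi204 with Ifi207 (Pearson r = 0.957), Ifi203 with Mndal (0.938) and Ifi205 with Ifi211 (0.873), the last pair being the one that shares most of its 3′ end. Ifi203 and Mndal overlap on the same strand, and the part of this in their correlation was not tested. The most opposed pair was Ifi204 with Mndal, at -0.512. These correlations describe the points and carry no test.

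**Figure D2:**
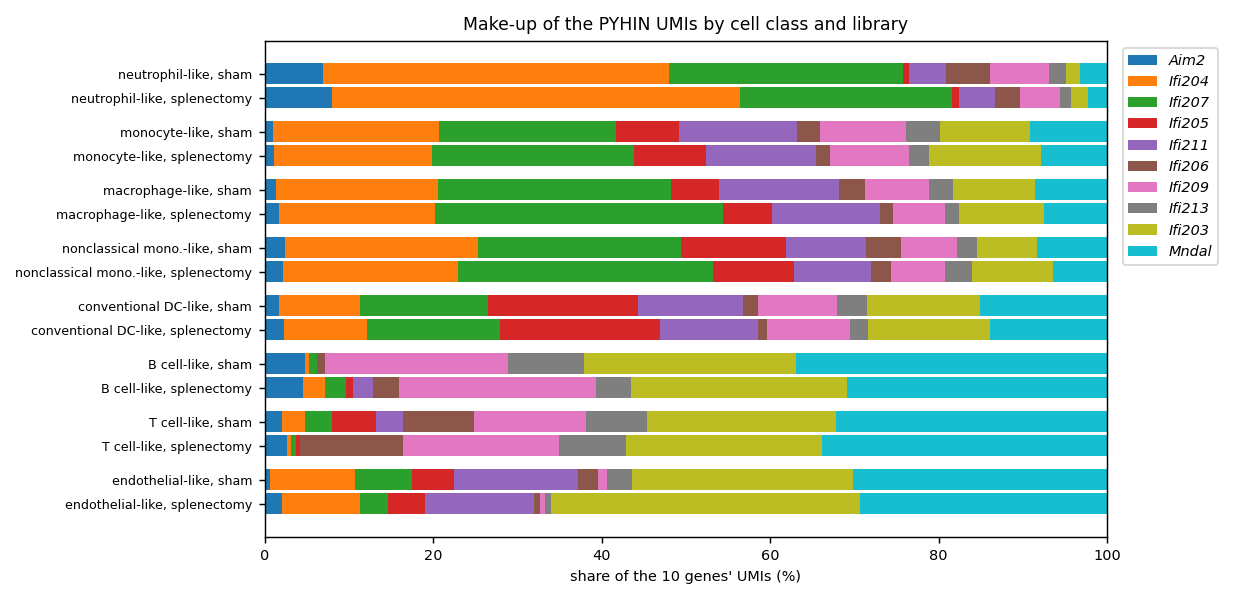
Bars give the share of each gene (%) in the UMIs of the 10 genes, by class and library. Ifi204 and Ifi207 make up 68.9% in sham neutrophil-like cells, and Ifi203 and Mndal make up 62.1% in sham B cell-like cells.

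The other 3 PYHIN genes of the locus found among the features were Ifi202b, Ifi208 and Ifi214. Ifi202b, which encodes a HIN protein without a pyrin domain that restrains Aim2 and is known for low expression in C57BL/6 mice, had 3 UMIs in each library. Ifi208 was highest in T cell-like cells, at 50.8 CPM in sham and 48.2 in splenectomy cells, and in neutrophil-like cells had 23.5 and 9.16 CPM. Ifi214 had 111 and 50 UMIs in all.

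Within classes the level differed by cluster. Among macrophage-like cells the cluster led by Lyve1, Cbr2 and Folr2, genes known from resident macrophages of the heart, held 2221 CPM of the family in sham and 1422 in splenectomy cells. Ifi207 alone was 852 and 685 CPM in that cluster, against 276 and 244 in the largest macrophage-like cluster, led by Arg1. Among monocyte-like cells the cluster led by Mgst1, with Chil3 and Ly6c2, held 2202 and 1242 CPM, and its Ifi205 level of 54.7 and 37.3 CPM was below that of the cluster led by Areg, at 143 and 109. An unnamed cluster led by the division genes Pclaf, Birc5 and Top2a (64 sham and 19 splenectomy cells) had 242 and 141 CPM of Ifi205.

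Neutrophil-like clusters differed too. The cluster led by Il23a, Ccrl2 and Ccl3 held 982 CPM in sham and 693 in splenectomy cells, the cluster led by Nt5e 547 and 353, and the cluster led by Retnlg and Wfdc21 357 and 218. The first made up 42.7% of the sham and 24.9% of the splenectomy neutrophil-like cells, and the last 20.8% and 50.4%. The libraries thus held different mixes of neutrophil-like clusters, and the mix moves with the level of the family in the class as a whole.

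**Figure D3:**
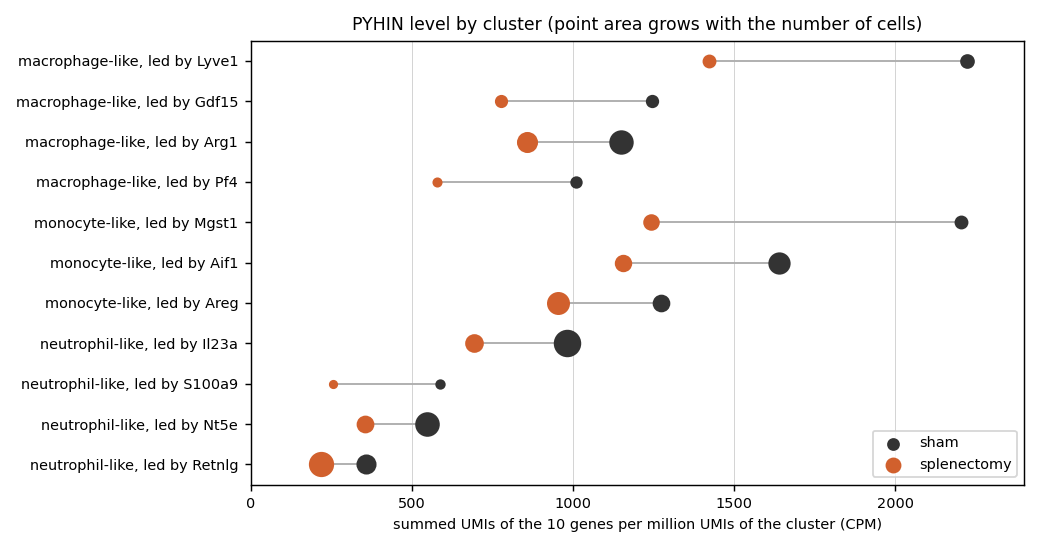
The summed level of the 10 genes (CPM) is plotted for the 11 clusters of the 3 large myeloid classes with at least 50 sham and 40 splenectomy cells, named by their leading gene. Sham points (black) lie to the right of splenectomy points (orange) in 11 of 11 clusters, and point area grows with the number of cells.

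In neutrophil-like cells the family was at 702 CPM in sham and 356 in splenectomy cells, a log2 ratio of -0.98 (95% interval -1.05 to -0.91). A gene is counted as lower or higher here at 1.5-fold with at least 50 UMIs in the higher library. Of the 10 members 9 had enough UMIs, and 9 were lower in the splenectomy library, where 6.74% of all 6069 genes with enough UMIs were lower. Of the members 0 were higher, where 3.21% of all genes were. Ifi205, with 36 and 18 UMIs, was not measured. The members chosen for such ratios cannot support them, and the share of all genes is given for scale.

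The widest gap in neutrophil-like cells was that of Ifi206, at 36.4 CPM in sham and 10.6 in splenectomy cells, 3.44-fold lower (log2 ratio -1.78, interval -2.19 to -1.39). Ifi213 was 14.1 and 4.74 CPM (-1.58, interval -2.21 to -0.99), Ifi209 was 49.6 and 16.7 (-1.57, interval -1.89 to -1.26) and Mndal was 22.3 and 8.05 (-1.47, interval -1.95 to -1.02). Of the 2 abundant members, Ifi207 was at 195 and 89.4 CPM (-1.13, interval -1.27 to -0.99) and Ifi204 at 289 and 172 (-0.74, interval -0.85 to -0.64). Aim2 was 48.7 and 28.3 CPM (-0.78), Ifi211 was 31.2 and 15.3 (-1.02) and Ifi203 was 11.8 and 7.26 (-0.70).

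With each cluster given the same weight in both libraries, the count of lower members in neutrophil-like cells was 5 and not 9, and the median log2 ratio of the measured members was -0.66 and not -1.13. Ifi206 was then at -1.30, Ifi213 at -1.22, Ifi209 at -1.17, Mndal at -0.94 and Ifi211 at -0.66, and Ifi207, Ifi204, Aim2 and Ifi203, at -0.53, -0.53, -0.43 and -0.41, no longer reached 1.5-fold. Part of the distance between the libraries in this class goes with the mix of clusters, as measured by this reweighting.

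In monocyte-like cells the family was at 1604 CPM in sham and 1062 in splenectomy cells (-0.59, interval -0.62 to -0.57). All 10 members were measured, and 6 were lower in the splenectomy library, where 3.92% of all 8723 genes were, and 0 were higher, where 2.5% of all genes were. Ifi206 was 43.8 and 17.0 CPM (-1.36, interval -1.56 to -1.16) and Ifi213 was 64.2 and 25.5 CPM (-1.33, interval -1.50 to -1.17). Mndal (146 and 83.9 CPM, -0.80), Ifi209 (164 and 100, -0.71), Ifi211 (225 and 139, -0.69) and Ifi204 (316 and 199, -0.67) were the other 4. Ifi205, Aim2, Ifi207 and Ifi203 lay between -0.41 and -0.30, with intervals below 0. Most sham cells of this class came from the cluster led by Aif1 (53.3%) and most splenectomy cells from that led by Areg (50.9%). The 10 neutrophil markers summed to 933 CPM in sham and 2699 in splenectomy monocyte-like cells, each of the 10 detected in both, and their part in the ratios was not tested. With the members and the other interferon genes kept among the genes used for clustering, 3 members were lower.

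In macrophage-like cells the family was at 1292 CPM in sham and 918 in splenectomy cells (-0.49, interval -0.52 to -0.46). All 10 members were measured, and 5 were lower, where 2.63% of all 9214 genes were, and 0 were higher, where 2.67% were. Ifi206 was 38.9 and 14.8 CPM (-1.39, interval -1.62 to -1.16), Ifi213 was 36.7 and 15.7 (-1.22, interval -1.45 to -1.003) and Ifi209 was 99.1 and 56.1 (-0.82, interval -0.94 to -0.70). Mndal at -0.69 and Ifi211 at -0.65 completed the 5. Ifi207, the most abundant member of these cells, was 357 and 314 CPM, 1.14-fold lower (-0.19, interval -0.24 to -0.13), and Aim2 was 17.6 and 15.9 CPM, with an interval of -0.40 to 0.10 that holds 0. With cells placed by their own marker UMIs 3 members were lower, and with the libraries clustered apart 2 were. The neutrophil markers summed to 688 and 808 CPM in this class, each of the 10 detected in both libraries.

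**Figure D4:**
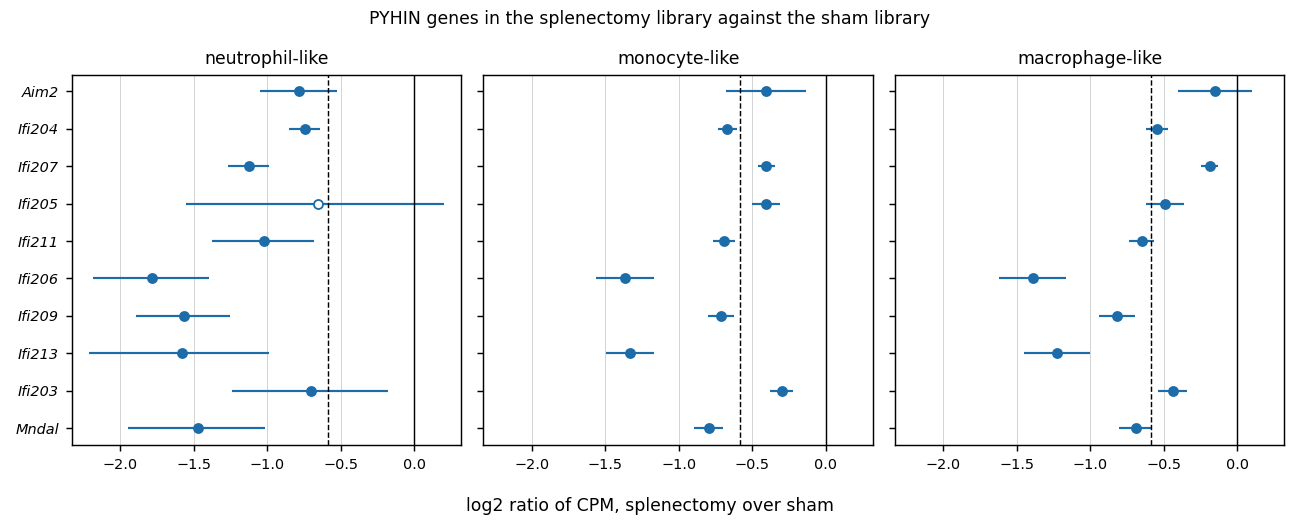
Points are log2 ratios of CPM, splenectomy over sham, for the 10 genes in 3 classes of myeloid cells, with exact 95% counting intervals. The solid line marks no difference, the dashed line 1.5-fold lower, and the open point a gene below the minimum of 50 UMIs. Ifi206 and Ifi213 lie furthest left in the monocyte-like and macrophage-like panels.

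The 3 large myeloid classes (neutrophil-like, monocyte-like, macrophage-like) therefore shared Ifi206, Ifi209, Ifi211, Ifi213 and Mndal among the genes counted as lower. The summed level was lower in the splenectomy library in 11 of the 11 clusters plotted by cluster, with log2 ratios of -1.19 to -0.42. The interval of the ratio lay below 0 in 9 of these clusters for Ifi206, Ifi207, Ifi209, Ifi211 and Mndal, in 8 for Ifi204 and Ifi213, in 7 for Ifi203, in 6 for Ifi205 and in 1 for Aim2. Some members were not below their sham level in single clusters. These were Ifi206 in the macrophage-like cluster led by Pf4, and Ifi203, Ifi205 and Ifi211 in the neutrophil-like cluster led by Retnlg. Ifi203, Ifi205 and Ifi209 were not below it in the neutrophil-like cluster led by S100a9. The cluster led by S100a9 held 41 and 11 UMIs of the family and shows little for single genes. Median UMIs per cell in sham and splenectomy cells were 3319 and 3745 in neutrophil-like, 12939 and 12927 in monocyte-like and 14198 and 14513 in macrophage-like cells. The median mitochondrial share was 0.137% and 0.162%, 1.76% and 2.26%, and 1.82% and 2.33%, and its part in the ratios was not tested.

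Conventional dendritic cell-like cells had 1034 CPM of the family in sham and 719 in splenectomy cells (-0.52). Of the 10 members 4 were lower (Ifi206, Ifi213, Mndal and Ifi211), where 3.24% of all genes were, and 0 were higher, where 2.31% were. Ifi205, at its highest in this class, was 184 and 137 CPM (-0.43, interval -0.61 to -0.26). In nonclassical monocyte-like cells 7 members were measured and 2 were lower, where 7.71% of all genes were, and 0 were higher, where 3.7% were. The 2 were Ifi205 at 179 and 116 CPM (-0.62) and Mndal at 119 and 77.6 (-0.62). Ifi207 was 346 and 366 CPM there, with an interval of -0.20 to 0.35 that holds 0.

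B cell-like cells went the other way. The family was at 510 CPM in sham and 719 in splenectomy cells (0.50, interval 0.24 to 0.75), on 211 and 333 UMIs. Of the 3 measured members 0 were lower, where 2.16% of all genes were, and 1 was higher, where 5.24% were. This was Ifi209, at 111 and 168 CPM (0.60, interval 0.06 to 1.16). Ifi203 was 128 and 184 CPM (0.52, interval 0.01 to 1.04), and Mndal was 189 and 223 CPM, with an interval of -0.20 to 0.68. Myeloid transcripts were also more frequent in the splenectomy B cell-like cells. The 10 neutrophil markers summed to 551 and 1484 CPM and the 10 monocyte markers to 326 and 477, with Retnlg at 0 in sham cells and every other marker of both lists detected, whereas the 14 macrophage markers, each detected, summed to 1840 and 1471. Il1b was 164 and 395 CPM, Pycard 38.7 and 82.1 and Ms4a6c 2.42 and 77.8, and the myeloid members Ifi204, Ifi207 and Ifi211 had 1, 2 and 0 UMIs in sham and 9, 8 and 8 in splenectomy cells. Their part in the ratios of B cell-like cells was not tested. In T cell-like cells 2 members were measured and 0 were lower, where 13.6% of all genes were, and 0 were higher, where 5.36% were. In endothelial cell-like cells 2 were measured and 0 were lower, where 8.06% of all genes were, and 0 were higher, where 6.47% were. Ifi203 was at 119 and 165 CPM in endothelial cell-like cells (0.47, interval 0.04 to 0.91). Differences between classes in these ratios were not tested.

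Cells were also thinned to 2000 UMIs each, which removes the difference in depth, and shallower cells were left out (225 sham and 115 splenectomy neutrophil-like, 9 and 3 monocyte-like, 108 and 54 macrophage-like). At that depth 52.7% (50.5 to 54.9) of the sham and 34.3% (31.9 to 36.8) of the splenectomy neutrophil-like cells had a UMI of at least 1 member, against 62.7% and 45.6% unthinned. The shares were 85.9% and 72.9% in monocyte-like cells (99.5% and 97.6% unthinned) and 82.9% and 73.0% in macrophage-like cells (96.4% and 93.7% unthinned). Fewer cells with a member UMI thus went with the lower level in these 3 classes.

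UMIs of at least 3 different members were found in 43.2% of the sham and 22.7% of the splenectomy monocyte-like cells, in 32.3% and 17.7% of the macrophage-like cells and in 7.59% and 2.71% of the neutrophil-like cells. For Ifi204 the thinned shares were 30.9% and 21.1% in neutrophil-like, 45.0% and 30.8% in monocyte-like and 35.6% and 27.5% in macrophage-like cells. Unthinned they were 39.9% and 29.5%, 87.9% and 74.6%, and 78.2% and 67.0%. B cell-like cells have a median of 3489 and 3644 UMIs and gave the lowest level of this gene in the sham library. There Ifi204 had a UMI in 0 of 99 thinned sham cells, where a limit of 3 cells is 3.03%. It had a UMI in 3.03% of thinned splenectomy B cell-like cells. Ifi206 was seen in 4.50% and 1.90% of thinned neutrophil-like cells and in 8.03% and 3.30% of monocyte-like cells.

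The neighbours of the family in its pathways were taken from lists drawn up with earlier results in view. Of 40 reference interferon-stimulated genes outside the family, 27 of 37 measured were lower in neutrophil-like cells. In monocyte-like cells 37 of 40 were lower, and in macrophage-like cells 35 of 40, and 0 were higher in each class. Of all genes with enough UMIs, 6.74%, 3.92% and 2.63% were lower in these classes, in that order, and 3.21%, 2.5% and 2.67% were higher. The median log2 ratios of the reference genes were -0.80, -0.90 and -0.90. Those of the measured members were -1.13, -0.68 and -0.60, and those of all genes -0.08, 0.00 and -0.01. Ifit3, which binds viral RNA with its relatives, was 332 and 123 CPM in neutrophil-like cells (-1.43). Ifi44 was 24.2 and 8.56 CPM in monocyte-like cells (-1.50), and Cmpk2, a nucleotide kinase, was 15.6 and 4.76 CPM in macrophage-like cells (-1.71). Isg15, a ubiquitin-like modifier, was 914 and 515 CPM in neutrophil-like (-0.83), 370 and 269 in monocyte-like (-0.46) and 239 and 167 in macrophage-like cells (-0.52).

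Among 18 interferon receptor and signalling genes, 3 of 17 measured were lower in neutrophil-like cells. In monocyte-like cells 5 of 18 were lower, and in macrophage-like cells 3 of 18, and 0 were higher in each class. The shares of all genes were 6.74%, 3.92% and 2.63% lower, and 3.21%, 2.5% and 2.67% higher. Stat2, a transcription factor of the type I interferon pathway, lay at -1.09, -0.86 and -1.04 in these classes, in that order, and Usp18, which removes Isg15 from proteins and damps the receptor, at -1.26, -1.07 and -1.20.

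Aim2 acts through the inflammasome genes. Of 15 such genes, 1 of 13 measured was lower in neutrophil-like cells, and 1 of 14 was lower and 1 higher in monocyte-like cells. In macrophage-like cells 0 of 15 were lower and 1 was higher. The shares of all genes were 6.74%, 3.92% and 2.63% lower, and 3.21%, 2.5% and 2.67% higher, so these counts lay near them. Pycard, the adaptor of Aim2, was 93.8 and 121 CPM in neutrophil-like (0.36), 493 and 526 in monocyte-like (0.09) and 359 and 379 in macrophage-like cells (0.08). Casp1 was 54.2 and 38.1 CPM in monocyte-like (-0.51) and 50.1 and 33.9 in macrophage-like cells (-0.56). Il1b was 4980 and 7401 CPM in monocyte-like cells (0.57) and 2174 and 3461 in macrophage-like cells (0.67), but 22283 and 18398 in neutrophil-like cells (-0.28). Il18, another cytokine that caspase-1 cuts, lay at -0.71, -0.77 and -0.45 in the 3 classes. Nlrc4, another gene of this list, was 3.07 and 5.33 CPM in monocyte-like cells (0.80).

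Of 19 cytosolic DNA sensing genes found, 4 of 12 measured were lower and 1 higher in neutrophil-like cells. In both monocyte-like and macrophage-like cells 3 of 16 were lower and 0 higher. The shares of all genes in the 3 classes were 6.74%, 3.92% and 2.63% lower, and 3.21%, 2.5% and 2.67% higher. Cgas, the enzyme that makes the messenger of STING, was 12.3 and 18.9 CPM in neutrophil-like (0.62), 15.03 and 12.0 in monocyte-like (-0.32) and 14.9 and 10.7 in macrophage-like cells (-0.48). Tmem173, which encodes STING, was 38.4 and 37.6 CPM in monocyte-like cells (-0.03) and 28.2 and 22.7 in macrophage-like cells (-0.31). Irf7, itself induced by interferon, was 332 and 159 CPM in neutrophil-like (-1.06), 339 and 138 in monocyte-like (-1.30) and 218 and 99.4 in macrophage-like cells (-1.13). Zbp1, a sensor of Z-form nucleic acids, lay at -0.60, -0.80 and -0.63. Rnaseh2c, a subunit of the nuclease that removes ribonucleotides from DNA, lay at -0.81 in neutrophil-like cells, and at 0.03 and 0.02 in monocyte-like and macrophage-like cells.

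The genes whose pattern was most like that of the summed family, by Pearson r over the 16 class-by-library points of log2(CPM + 1) among 8124 genes with at least 500 UMIs, were Clec4a3 (0.907), Ctss (0.898), Aif1 (0.887), Sap30 (0.882), Aup1 (0.879), 4930455G09Rik (0.877), Ms4a6c (0.877) and Acer3 (0.869). Clec4a3, a C-type lectin of myeloid cells, was 439 CPM in sham nonclassical monocyte-like and 14.8 in sham neutrophil-like cells. None of the 8 is among the reference interferon-stimulated genes.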

How the data were processed

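The deposited matrices hold counts of UMIs per gene and barcode. Per the file headers they come from Cell Ranger 5.0.0, and per the submitters' processing notes from the mm10 build. The sources used here do not give the annotation. Members and lists were chosen with earlier results of these data known. Cells needed 200 genes and at most 20% mitochondrial UMIs, which left out 70 sham and 82 splenectomy barcodes. Doublets were scored with Scrublet (scanpy 1.11.5, expected rate 0.05), and the top 8 per 1000 for each 1000 cells were removed (302 and 200 cells). Clustering took both libraries at once, with 2000 variable genes, 30 components, 15 neighbours and Leiden resolution 1.0 (leidenalg 0.10.2), with listed genes left out. The 22 clusters were named by the class, of 19, with the largest share of its markers in 25% of cells at 1.5-fold, with at least 3 such markers. An earlier score by mean fold misnamed the Lyve1 cluster and was replaced after cluster names, not member values, had been seen. UMIs were summed by class and divided by the class total. Ratios have exact conditional intervals, a count of 0 was replaced by 3, and no tests were run with 1 library per group. The ratio was tested on simulated data. Named genes are the 10 members, other PYHIN genes found, the 3 largest ratios of each list with preset genes (Irf7, Isg15, Pycard, Casp1, Il1b, Il18, Cgas and STING), and the 8 most alike genes. A further preset gene is not reported here. Of the listed symbols, Pydc3, Pydc4, Pyhin1, Mnda and Ifi203-ps were not among the features, and Mb21d1 and Sting1 appear as Cgas and Tmem173. Alternatives changed scaling, cell weight, depth, classes, cluster mix, doublets and filters.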

Additional observations from a re-analysis of the deposited data

Results flagged for a closer look

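In 3 cases the whole interval of a member's ratio lay above 0 in a small class, for members with at least 50 UMIs. For the same members it lay below 0 in the neutrophil-like, monocyte-like, macrophage-like and conventional dendritic cell-like classes. Ratios above 0 whose interval holds 0 are not among these cases. Ifi209 in B cell-like cells had a log2 ratio of 0.60, Ifi203 in B cell-like cells 0.52 and Ifi203 in endothelial cell-like cells 0.47. The differences between classes were not tested. These values rest on 46 and 78, 53 and 85, and 78 and 110 UMIs in sham and splenectomy cells. In the B cell-like cells the neutrophil markers summed to 551 and 1484 CPM, Ms4a6c was 2.42 and 77.8 CPM, and Il1b was 164 and 395 CPM. The macrophage markers went the other way in these cells, at 1840 and 1471 CPM. In the endothelial cell-like cells the neutrophil markers summed to 1634 and 428 CPM and the macrophage markers to 4356 and 2558. Markers of fibroblasts summed there to 903 and 2924 CPM and those of mural cells to 1020 and 2361. The part of these in the ratios was not tested.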

How the results depend on the processing

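No paired analysis was possible because each group has 1 library. Over 448 values of members with at least 50 UMIs in the 3 large myeloid classes under the alternatives, 448 lay below 0, and 88 moved outside the counting interval of the value reported. The number of lower members in neutrophil-like cells was 5 with the same mix of clusters in both libraries, and 6 to 10 under the others. In monocyte-like cells it was 3 with the interferon lists kept for clustering, and 4 to 7 otherwise. In macrophage-like cells it was 3 with cells classed by their own marker UMIs and 2 with the libraries clustered apart, and 4 to 6 otherwise. The cause of these shifts was not tested beyond the construction of each alternative. Taking monocyte-like and macrophage-like cells together, an alternative chosen after seeing the data, gave 6. The factor from the median of ratios differed from that of CPM by a log2 of -0.06 in neutrophil-like, -0.01 in monocyte-like and -0.01 in macrophage-like cells. Depth limits the lymphocyte-like and endothelial cell-like classes most, where 2 or 3 members had 50 UMIs.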
